A study of Mus musculus with 12 samples.

Results

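The genes described here present peptides on MHC class I, and they are B2m, H2-K1, H2-D1, Tap1, Tap2, Psmb8, Psmb9, Irf1 and Nlrc5. These 9 genes were taken by symbol from the 35509 genes of the deposited table. No cutoff on a measured value was used to choose them, but earlier results of these data were known. They were read in 12 libraries from the distal region of the Fallopian tube of 6 mice, each mouse giving a large-clone and a small-clone library, 1 of each. All 12 libraries share one genotype (MADM RG;GR alleles, wildtype, on a mixed background), one age (4 weeks) and no treatment, and each pools 200 laser-dissected cells, so clone size is the only difference the labels give. MADM alleles recombine between homologous chromosomes in dividing cells and leave the daughter cells and their progeny in different fluorescent colours, so a clone and its size can be seen. The size that separates a large from a small clone, and the Cre driver, are not given in the sources used here. Tissue was cut out by laser, digested with proteinase K and amplified from poly(A) RNA before Nextera XT library preparation. The question of the design is how the RNA profile of large clones compares with that of small ones.

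MHC class I molecules show peptides from inside a cell to CD8+ T cells and natural killer cells. Proteasomes cut proteins into peptides, the TAP transporter moves these into the endoplasmic reticulum, and there they are loaded onto a heavy chain paired with the light chain beta-2 microglobulin. Interferon raises most of these genes through the transcription factor IRF1 and the coactivator NLRC5, and epithelial cells of most tissues, the oviduct included, carry class I at some level.

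The heavy chain promoters are shown first because H2-K1 and H2-D1 carry the same kB and ISRE letters, while H2-K1 was the higher of the pair in every library. The interval between Tap1 and Psmb9 is shown because in RefSeq these neighbours start back to back. In the annotation of the counted table both genes overlap at their starts, so that interval is a RefSeq one. Sequences are from RefSeq on GRCm38.p6, whose table held 7 of the 9 genes and neither Tap2 nor Nlrc5, and each is written 5′ to 3′ along the gene. In the heavy chains, the 250 bases before the start are given, with capitals marking a match to the kB site GGGNNTTCC and to the ISRE core GAANNGAAA (here on the opposite strand). H2-K1 lies on the minus strand at chr17:34000348-34000597 and H2-D1 on the plus strand at chr17:35262844-35263093. H2-K1 has 2 start sites in that table, and the first was used. The 225 bases between the starts of Psmb9 and Tap1, at chr17:34187331-34187555, are given on the plus strand, along Tap1, with capitals marking the CCAAT box and the CRE core TGACG.
H2-K1: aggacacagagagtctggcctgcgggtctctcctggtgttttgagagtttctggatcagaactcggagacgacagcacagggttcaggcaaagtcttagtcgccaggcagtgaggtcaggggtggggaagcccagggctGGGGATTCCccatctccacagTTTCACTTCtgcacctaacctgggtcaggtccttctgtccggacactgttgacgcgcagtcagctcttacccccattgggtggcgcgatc
H2-D1: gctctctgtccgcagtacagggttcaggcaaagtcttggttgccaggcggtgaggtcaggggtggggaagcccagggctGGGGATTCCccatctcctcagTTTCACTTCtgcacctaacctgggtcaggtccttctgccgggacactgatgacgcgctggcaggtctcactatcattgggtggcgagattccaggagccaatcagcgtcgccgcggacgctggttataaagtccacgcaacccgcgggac
Tap1-Psmb9 interval: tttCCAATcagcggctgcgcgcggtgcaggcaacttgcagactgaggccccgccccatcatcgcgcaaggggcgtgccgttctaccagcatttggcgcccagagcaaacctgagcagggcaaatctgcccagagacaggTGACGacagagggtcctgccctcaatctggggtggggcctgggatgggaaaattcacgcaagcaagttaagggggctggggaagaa

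In H2-K1 the kB match lay 111 to 103 bases before the start and the ISRE match 90 to 82 bases before it. In H2-D1 the same pair lay at 171 to 163 and at 150 to 142 bases. Both strands of the 250-base windows of 32851 RefSeq starts were searched for 5 motifs with overlapping matches kept. The kB letters were in 4.98% of windows, GAANNGAAA in 6.31%, the GAS core TTCNNNGAA in 7.02%, CCAAT in 33.8% and TGACG in 17.8%. A GAS match stood 97 to 89 bases before Psmb8 and 90 to 82 bases before Irf1, and B2m had a CCAAT match at 53 to 49 bases and a TGACG match at 78 to 74 bases. The Tap1-Psmb9 interval held 1 CCAAT and 1 TGACG match and 0 matches to the other 3 motifs. A match describes letters and is not a measured binding site.

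Library totals ran from 3057979 to 4227129 expected counts. The share of counts on 1825 receptor genes for smell, taste, pheromones and trace amines (chemoreceptors) was 7.85% to 11.0% in 5 libraries, from mice 1, 2 and 6 for large and mice 3 and 6 for small clones. It was 0.840% to 4.14% in the other 7. These sets are called the higher-share and lower-share libraries. They differed in other ways as well: ribosomal protein genes held 2.15% to 8.89% of counts in the higher-share and 14.8% to 20.2% in the lower-share libraries, and the summed level of the 13 epithelial markers was 636 to 2150 against 4968 to 14632 CPM, counts per unit of TMM-scaled library size. The 23 leukocyte markers summed to 243 to 459 CPM in the higher-share and 109 to 344 CPM in the lower-share libraries. Because 3 of the 5 higher-share libraries came from large clones and 2 from small clones, values by share are given beside the results below. The 2 libraries of a mouse lay in different sets in mice 1, 2 and 3, and in the same set in mice 4, 5 and 6. Within mice 1, 2 and 3 clone size and share cannot be told apart. This bears on the counts of mice below and on the fits with mouse as a block. The part of share in the results was not tested.

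Large and small clones did not differ in any of the 9 genes at an adjusted p under 0.05 (edgeR quasi-likelihood test, Benjamini-Hochberg over 10848 genes). A filter on low counts left 4 of the 9 in the test (H2-K1, H2-D1, Tap2 and Psmb8). Of these, 0 passed, against 0% of all genes tested, and 0 had an unadjusted p under 0.05, against 2.54% of all genes (275 genes). DESeq2 called 5 genes of the table and 43 with mouse as a block, which is 0.0494% and 0.412% of the genes they tested, and 0 of the 9 genes were among them. Of the 4, 0 had large-clone and small-clone ranges that did not overlap, against 0.0645% of all genes. H2-K1 and Tap2 had the higher fitted level in large clones, H2-D1 and Psmb8 in small clones, and 53.2% of all genes tested were higher in large clones. The median log2 fold change of the 4 was 0.46, beside 0.06 over all genes. It was -0.07 with mouse as a block, -0.68 in limma, -1.50 over the 5 tested in the lower-share libraries, -0.31 without large clones of mouse 3 and -0.30 without large clones of mouse 4. In edgeR the spread between libraries was wide, with a biological coefficient of variation of 115%. P-values of the main fit measure the spread between libraries of a clone size, in which mouse, cell sampling and amplification are mixed. That fit leaves the pairing of libraries by mouse unused, and the fit with mouse as a block uses it. In pooled cells fewer cells of a type and less RNA per cell cannot be told apart.

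**Figure D1:**
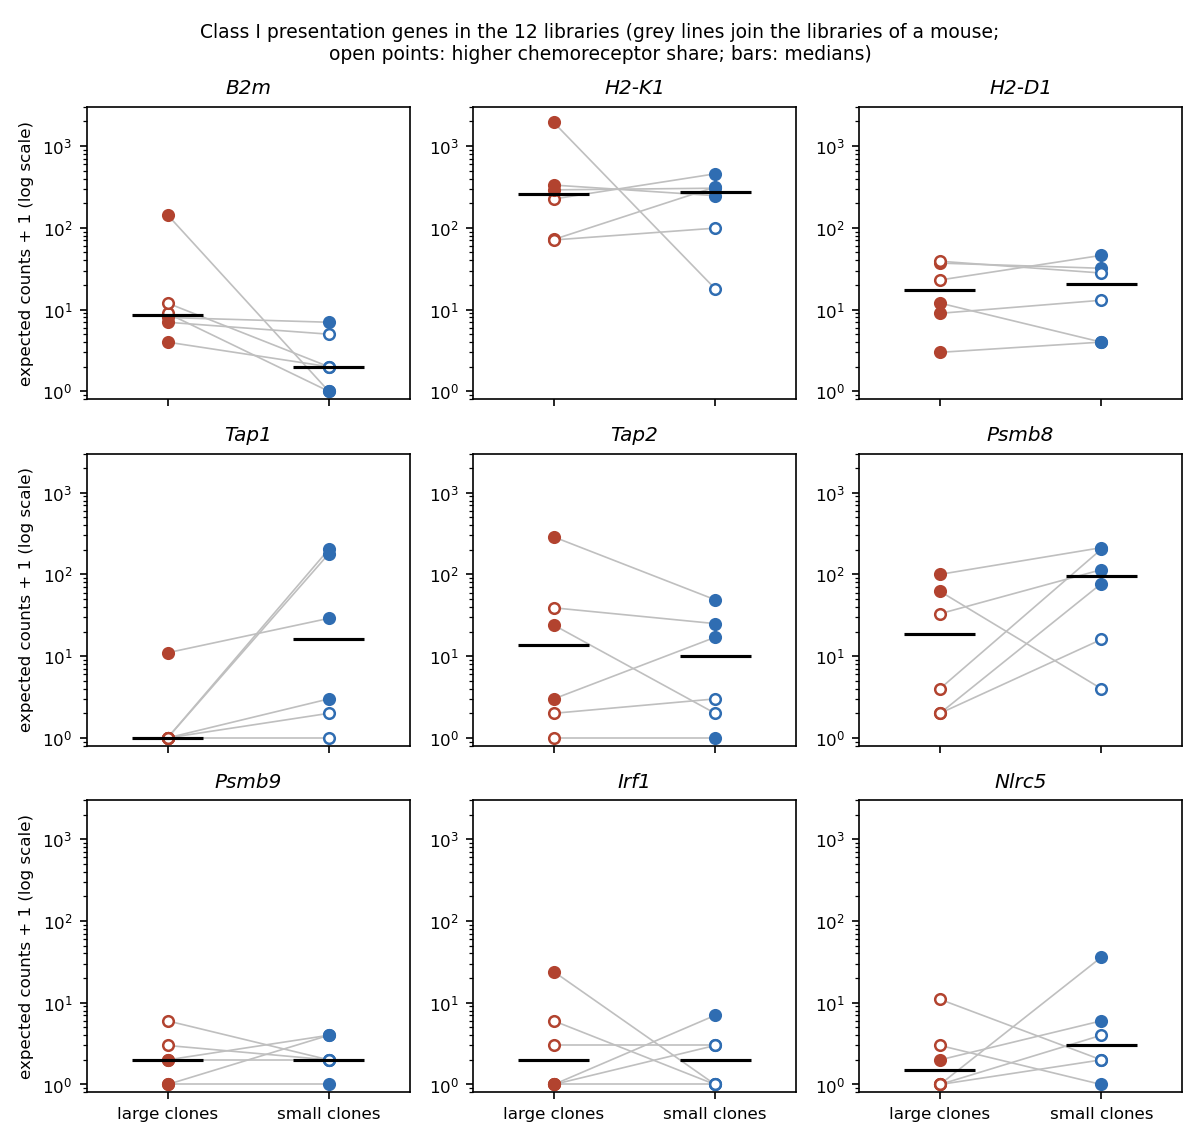
Expected counts of each of the 9 genes per library (log axis of counts + 1), with grey lines joining the large and small clones of a mouse, open points for higher-share libraries and bars for medians. H2-K1 stands highest, B2m and Tap2 have their highest point in large clones of mouse 4, and Tap1 is at 0 in 5 of 6 large-clone libraries.

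H2-K1 encodes the K heavy chain, which holds the peptide. It was the most abundant of the 9 genes (ENSMUSG00000061232, chr17 34214991 to 34219321 in the table's own coordinates, whose build is not named), at rank 1504 of 25401 detected genes by mean CPM. In large clones of mice 1 to 6 it had 224, 71, 1939, 332, 290 and 70 expected counts, and in small clones 456, 314, 17, 246, 304 and 98. The groups overlapped, and large clones of mouse 3 stood above every other library while small clones of the same mouse had the fewest counts of all. In 2 of 6 mice H2-K1 had the higher level in large clones. Large clones averaged 184 ± 305 CPM and small clones 75.1 ± 53.3 CPM (SD, n = 6 per size), and the log2 fold change was 1.30 (SE 1.00, 95% interval -0.84 to 3.43, edgeR adjusted p = 0.9996). Mouse 3 had 799 CPM in its large-clone library, of the lower-share set, and 4.21 CPM in its small-clone library, of the higher-share set. The log2 fold change was -0.33 without large clones of mouse 3 and -0.15 with mouse as a block.

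By share, H2-K1 did not overlap between the library sets. Its counts were 246 to 1939 in the 7 lower-share and 17 to 224 in the 5 higher-share libraries, or 208 ± 262 and 20.5 ± 16.3 CPM (SD, n = 7 and 5). Of all genes tested, 9.97% were above in every lower-share library and 8.64% in every higher-share one, and of the 4 tested genes described here H2-K1 alone was of the first kind and none was of the second. Within the lower-share libraries its log2 fold change between clone sizes was 1.54, and within the higher-share ones 1.02.

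H2-D1 encodes the D heavy chain, with the same role at the cell surface (ENSMUSG00000073411, chr17 35481706 to 35486475 in the table's coordinates). Its counts were 36, 22, 8, 2, 11 and 38 in large clones of mice 1 to 6 and 31, 45, 12, 3, 3 and 27 in small clones. The groups overlapped over almost their whole range, with 3 mice higher in large and 3 higher in small clones. Large clones averaged 4.58 ± 2.65 CPM and small clones 6.01 ± 5.82 CPM (SD, n = 6 per size), and the log2 fold change was -0.38 (SE 0.81, 95% interval -2.10 to 1.35). Leaving out small clones of mouse 2 turned it to 0.15. H2-D1 counts ran from 2 to 45 in the lower-share and from 12 to 38 in the higher-share libraries. Both the lowest and the highest counts thus lay in the set where H2-K1 was high.

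H2-K1 exceeded H2-D1 in 12 of 12 libraries. The log2 ratio of CPM + 1 averaged 3.83 ± 2.70 for large clones and 3.25 ± 2.05 for small clones (SD, n = 6 per size), with ranges of 0.80 to 7.54 and 0.39 to 5.57. In the lower-share libraries it was 2.73 to 7.54 and in the higher-share ones 0.39 to 2.49. The heavy chains share sequence, which limits how surely reads can be placed. In the GENCODE M21 transcripts, 14.3% of the 50-base windows of H2-D1 also occur in another gene, most often H2-Q1 (7.40%), as do 8.79% of those of H2-K1, most often H2-D1 (6.94%).

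B2m encodes the light chain, without which heavy chains do not reach the surface (ENSMUSG00000060802, chr2 121978167 to 121983564 in the table's coordinates). It had 7, 8, 6, 143, 3 and 11 counts in large clones of mice 1 to 6 and 6, 0, 4, 0, 1 and 1 in small clones. The filter removed it. Large clones of mouse 4 held 75.3% of its 190 counts, the other 11 libraries had between 0 and 11, and in 5 of 6 mice B2m had the higher level in large clones. The mean was 12.1 ± 25.2 against 0.565 ± 0.748 CPM (SD, n = 6 per size). Tested without a filter on low counts, the log2 fold change was 4.31 (SE 1.53, unadjusted p = 0.0107, edgeR adjusted p = 0.424), and it was 1.52 without large clones of mouse 4 (adjusted p = 0.718). By share B2m averaged 9.86 CPM in the lower-share and 1.34 CPM in the higher-share libraries, with 0 to 143 and 1 to 11 counts. B2m shared no 50-base window with another gene. Large clones of mouse 4 also held 64.1% of the counts of the fibroblast gene Dcn, 57.3% of those of Col3a1 and 59.4% of those of the endothelial gene Kdr, and had the fewest genes detected (12103). The other listed fibroblast and endothelial markers had their most counts in other libraries. In large clones of mouse 4 Col1a1 was at 2.66 CPM, the lowest of the lower-share set, and Pecam1 at 136 CPM, near its highest of 141 CPM. Dcn, Col3a1 and Kdr were thus high in the same library as B2m, Tap2 and Oasl2. The part of these markers and of the genes detected in those values was not tested.

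The light chain was lower in CPM than the sum of both heavy chains in every library. H2-K1 was the larger part of that sum, though in small clones of mouse 3 it was 4.21 CPM beside 2.97 CPM for H2-D1. These CPM are not scaled by transcript length, which is 0.86 kb for B2m, 1.62 kb for H2-K1 and 2.10 kb for H2-D1. The log2 ratio of B2m over H2-K1 plus H2-D1, each as CPM + 1, averaged -4.15 ± 2.35 for large clones and -5.30 ± 1.80 for small clones (SD, n = 6 per size) and was above 0 in 0 of 12 libraries. Its ranges, -7.85 to -1.21 and -6.98 to -2.04, overlapped. Against H2-D1 alone the light chain was not always lower: in large clones of mouse 4 B2m had 143 counts and H2-D1 had 2.

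**Figure D2:**
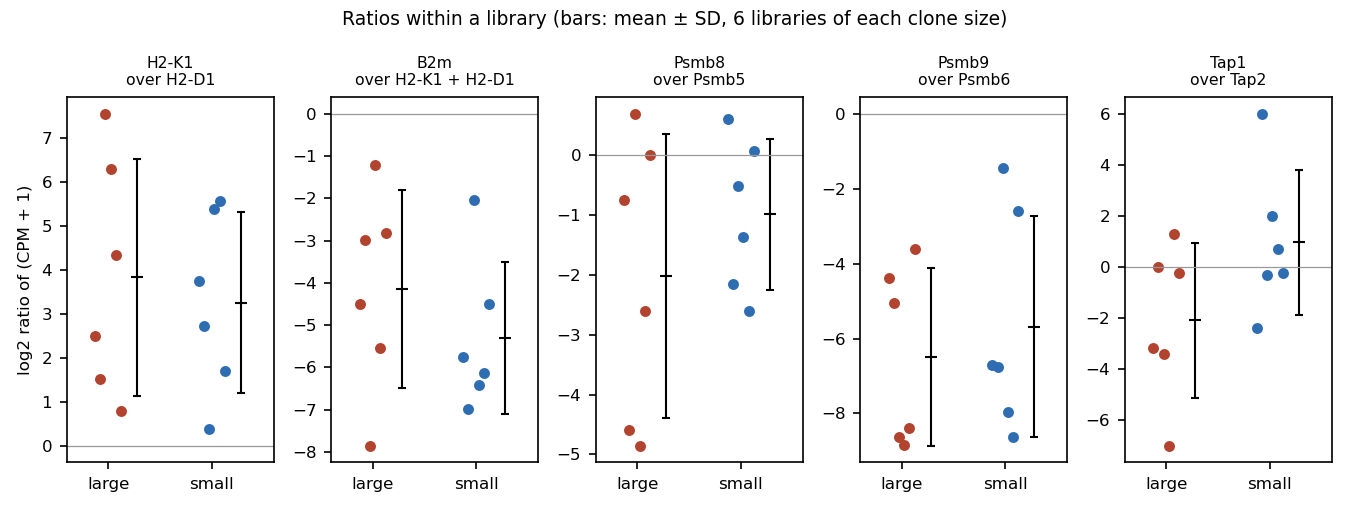
Log2 ratios of CPM + 1 within a library for 5 gene pairs, each point a library, with the mean and SD of 6 libraries beside the points of each clone size. H2-K1 lies above H2-D1 in 12 of 12 libraries, and B2m lies above the sum of H2-K1 and H2-D1 in 0 of 12.

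TAP1 and TAP2 form the peptide transporter. Tap1 (ENSMUSG00000037321, chr17 34406527 to 34416199 in the table's coordinates) had 0, 0, 0, 0, 10 and 0 counts in large clones of mice 1 to 6 and 2, 178, 0, 202, 28 and 1 in small clones. The small clones of mice 2 and 4 were far above every other library, and 5 of 6 large-clone libraries were at 0, where 3 counts, the limit that a 0 allows, would be 0.585 to 1.33 CPM across libraries. Tap1 was lower in large clones in 5 of 6 mice and at 0 in both libraries of mouse 3. The mean was 0.468 ± 1.15 against 23.3 ± 32.9 CPM (SD, n = 6 per size). Without a filter the fitted log2 fold change was -5.52 (SE 1.87, unadjusted p = 0.00787, edgeR adjusted p = 0.424). Its size depends on the single large-clone library with counts and on small clones of mice 2 and 4. It was below 0 in 14 of 14 unfiltered settings, from -9.39 to -4.79, with a lowest adjusted p of 0.402 (edgeR). Without that library, large clones of mouse 5, all large-clone libraries were at 0.

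Tap2 (ENSMUSG00000024339, chr17 34422501 to 34435295 in the table's coordinates) had 38, 0, 23, 286, 2 and 1 counts in large clones of mice 1 to 6 and 24, 0, 1, 48, 16 and 2 in small clones. Large clones of mouse 4 held 64.9% of its 441 counts, and the other values overlapped between clone sizes. Large clones averaged 24.2 ± 50.5 CPM and small clones 4.87 ± 6.38 CPM (SD, n = 6 per size), and the log2 fold change was 2.31 (SE 1.64, 95% interval -1.20 to 5.82). It was 0.79 with mouse as a block and -0.42 without large clones of mouse 4. Both subunits were high in small clones of mouse 4 (202 Tap1 and 48 Tap2 counts), while large clones of mouse 4 had 286 Tap2 and 0 Tap1 counts and small clones of mouse 2 had 178 Tap1 and 0 Tap2 counts. By share, Tap1 averaged 20.4 CPM in the lower-share and 0.0421 CPM in the higher-share libraries, and Tap2 23.7 and 1.78 CPM, with overlapping ranges for both. The log2 ratio of Tap1 over Tap2, as CPM + 1, averaged -2.09 ± 3.04 for large clones and 0.96 ± 2.85 for small clones, with ranges of -7.00 to 1.29 and -2.40 to 5.98, and it was above 0 in 4 of 12 libraries.

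PSMB8 and PSMB9 replace catalytic subunits of the standard proteasome to form the immunoproteasome. Psmb8 (ENSMUSG00000024338, chr17 34416695 to 34420428 in the table's coordinates) had 32, 3, 61, 1, 99 and 1 counts in large clones of mice 1 to 6 and 113, 202, 3, 76, 211 and 15 in small clones. It was lower in large clones in 5 of 6 mice, and in mouse 3 the order was the opposite. In mice 1, 2 and 3 the library with the lower Psmb8 level was the higher-share one of the pair. The part of share in this order was not tested. Large clones averaged 10.2 ± 12.9 CPM and small clones 32.9 ± 29.0 CPM (SD, n = 6 per size), and the ranges overlapped. The log2 fold change was -1.69 (SE 1.25, 95% interval -4.36 to 0.98) and did not pass, with -2.90 with mouse as a block and -2.39 to -1.41 when each library was left out in turn. Within the lower-share libraries it was -1.50, and within the 5 higher-share libraries, where Psmb8 had 1 to 32 counts, it was 0.32. The lowest adjusted p over all alternatives was 0.193 (edgeR, DESeq2 or limma).

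Psmb9 (ENSMUSG00000096727, chr17 34400961 to 34406738 in the table's coordinates) was near the limit of detection. It had 2, 0, 0, 1, 1 and 5 counts in large clones of mice 1 to 6 and 1, 0, 3, 3, 1 and 1 in small clones, 18 in all, with more than 3 in 1 library. No difference between clone sizes was detectable at this depth (0.354 ± 0.362 against 0.430 ± 0.378 CPM, SD, n = 6 per size), and by share Psmb9 averaged 0.336 CPM in the lower-share and 0.471 CPM in the higher-share libraries. Psmb9 and Tap1 overlap at their starts in the annotation, 12.5% of the 50-base windows of Psmb9 occur also in Tap1, and the strand used in counting is not given in the sources used here, so reads there cannot be told apart. The small clones of mice 2 and 4, which had 178 and 202 Tap1 counts, had 0 and 3 Psmb9 counts.

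Against the standard subunits they replace, both immunoproteasome genes were mostly the lower of the pair. The log2 ratio of Psmb8 over Psmb5, as CPM + 1, averaged -2.02 ± 2.37 for large clones and -0.99 ± 1.27 for small clones (SD, n = 6 per size) and was above 0 in 3 of 12 libraries. The ratio of Psmb9 over Psmb6 was -6.48 ± 2.38 and -5.68 ± 2.96 and was above 0 in 0 of 12. With Psmb9 at 0 to 5 counts in every library, this ratio follows the level of Psmb6 and says little about the balance of the pair.

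Irf1 and Nlrc5, the regulators, were scarce. Irf1 (ENSMUSG00000018899, chr11 53660841 to 53669200 in the table's coordinates), a transcription factor induced by interferon gamma, had 0, 2, 0, 0, 23 and 5 counts in large clones of mice 1 to 6 and 0, 2, 2, 6, 0 and 0 in small clones. Large clones of mouse 5 gave 23 of its 40 counts. Without a filter its log2 fold change was 1.27 (unadjusted p = 0.447, edgeR), and without that library -0.68. Nlrc5 (ENSMUSG00000074151, chr8 95160984 to 95253900 in the table's coordinates), which joins a DNA-bound complex on class I promoters, had 10, 2, 0, 0, 1 and 0 counts in large clones of mice 1 to 6 and 1, 0, 3, 35, 5 and 1 in small clones. Small clones of mouse 4 gave 35 of its 58 counts. Its unfiltered log2 fold change was -2.25 (unadjusted p = 0.174, edgeR) and -0.11 without that library. By share, Irf1 averaged 1.31 CPM in the lower-share and 0.388 CPM in the higher-share libraries, and Nlrc5 1.99 and 0.709 CPM, with overlapping ranges.

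Per kilobase of the longest coding transcript, the order of the 9 genes over 12 libraries was H2-K1 (mean 80.1 CPM per kb), Psmb8 (13.2), B2m (7.34), Tap2 (4.23), Tap1 (4.03), H2-D1 (2.52), Irf1 (0.434), Psmb9 (0.290) and Nlrc5 (0.192). H2-K1 was above Psmb8 in 12 of 12 libraries. Psmb8 was above B2m in 8 and B2m above Tap2 in 8, so these neighbours were not separated beyond their spread. Tap2 was above Tap1 in 7 libraries, and Tap1, whose mean rests on a few libraries, was above H2-D1 in 3. H2-D1 was above Irf1 in 10 of 12, Irf1 above Psmb9 in 4 and Psmb9 above Nlrc5 in 8. By the median over libraries H2-D1 (2.02 CPM per kb) came before B2m (1.44), Tap2 (0.754) and Tap1 (0.0356). Psmb9 (0.224) likewise came before Irf1 (0.110) by the median.

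The other genes of the class I and interferon pathways also gave no call. Of 106 such genes in 8 lists, 68 were tested, 25 had a higher and 43 a lower fitted level in large clones, and the median log2 fold change was -0.23, beside 0.06 over all genes. With mouse as a block the split was 24 to 44, where 47.7% of all genes were higher. In the lower-share libraries it was 22 higher and 50 lower of 72 tested, where 46.0% of all genes were higher, and in the higher-share libraries 44 higher and 33 lower of 77 (57.1%), where 51.3% of all genes were higher. The difference between the library sets was not tested.

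**Figure D3:**
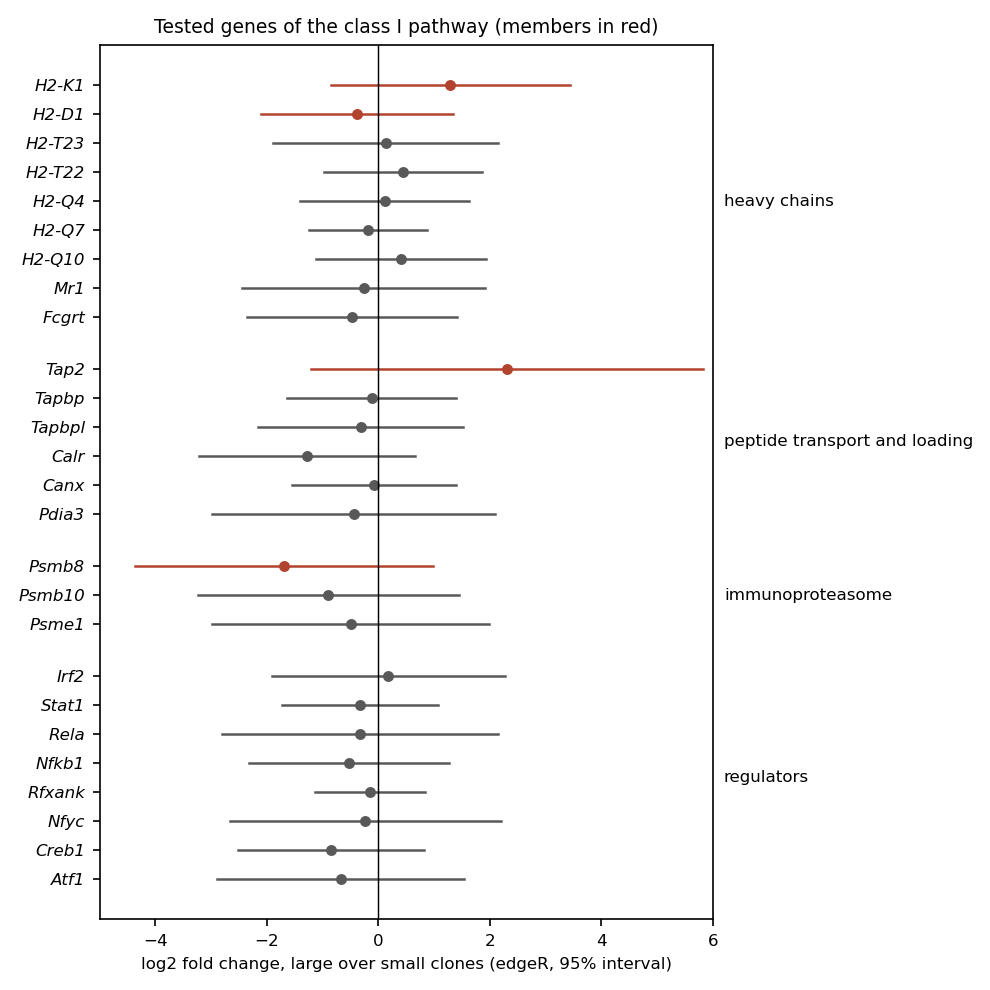
Log2 fold change, large over small clones, with 95% intervals (edgeR) for the tested genes among the heavy chains, peptide loading, immunoproteasome and regulator lists, the 4 tested genes described above in red. Every interval drawn crosses 0, and that of Tap2 is the widest, from -1.20 to 5.82.

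Among peptide loading factors and proteasome subunits more genes had a lower than a higher fitted level in large clones, and none passed. In the loading list, which holds Tap1 and Tap2, 6 of 8 genes were tested, 1 was higher and 5 lower in large clones (median log2 fold change -0.22). The median turned to 0.31 with the chemoreceptor share and mouse in the model, to 0.10 in the lower-share libraries and to 0.05 without small clones of mouse 5. Calr, the chaperone calreticulin of the loading complex, had a level of 566 ± 576 CPM for large clones and 1376 ± 1361 CPM for small ones (SD, n = 6 per size; log2 fold change -1.28, SE 0.91), and -0.68 without small clones of mouse 5. Tapbp, the tapasin that bridges TAP and the heavy chain, was chosen after its values were seen, as were Canx, Psme1 and H2-M3 below. Tapbp was level between sizes, at 241 and 262 CPM. Its counts were 657 to 1654 in the lower-share and 202 to 493 in the higher-share libraries. Calr and the chaperone Canx likewise did not overlap between the sets as CPM, so 3 of the 6 tested loading genes were above in every lower-share library, against 9.97% of all genes tested. The same held for 4 of 15 tested standard proteasome genes and 5 of 11 tested epithelial markers, so it was not particular to the loading genes.

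All 3 tested immunoproteasome genes of 5 had a lower fitted level in large clones (median -0.90). In the higher-share libraries their median was 0.32. Psmb10, the remaining catalytic subunit, had 27.7 CPM for large clones and 51.6 CPM for small ones (log2 fold change -0.90, SE 1.09). Psmb10 and the activator subunit Psme1 had 65 to 327 and 159 to 870 counts in the lower-share and 1 to 77 and 8 to 177 in the higher-share libraries. Those ranges overlap as counts but not as CPM (28.9 to 114 against 0.195 to 16.3 CPM for Psmb10). Thus 2 of the 3 tested genes of this list were above in every lower-share library, against 9.97% of all genes tested. In the standard proteasome list 15 of 16 were tested, 5 were higher and 10 lower in large clones (median -0.24, but 0.07 once chemoreceptor share was a term of the model and 0.04 over the 8 genes with at least 10 counts in every library), with Psmb3 at -1.71 (SE 0.88) and the activator Psme3 at -2.31 (SE 1.19). Psmb3 was at -0.88 without small clones of mouse 4.

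Among heavy and light chains, 9 of 16 genes were tested, 5 higher and 4 lower in large clones (median 0.12). The median was -0.38 in the lower-share and 0.59 in the higher-share libraries. It lay between -0.29 and 0.0826 when 1 library was left out, and was below 0 without large clones of any 1 of the 6 mice and without small clones of mice 3, 4 or 5. The nonclassical heavy chain H2-T22 had a log2 fold change of 0.44, and of 0.0098 without large clones of mouse 3. Nonclassical H2-Q4, chosen after its values were seen, ran against H2-K1 by share, with 49 to 311 counts in the lower-share and 601 to 1517 in the higher-share libraries. By clone size it was level (126 and 117 CPM). H2-M3, a nonclassical chain that presents formylated peptides, was at 0 in all 12 libraries.

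**Figure D4:**
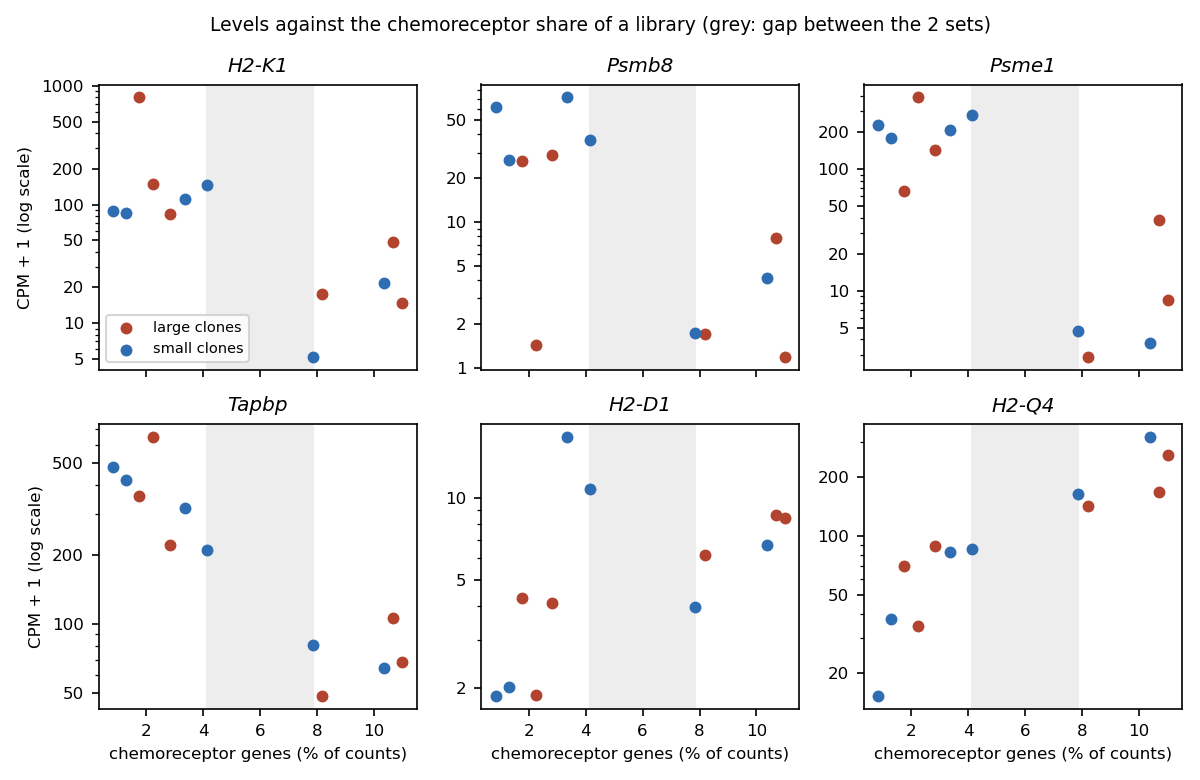
Level (CPM + 1, log axis, scale set per panel) of H2-K1, Psmb8, Psme1, Tapbp, H2-D1 and H2-Q4 against the percentage of counts on chemoreceptor genes, each point a library of large or small clones and the grey band the gap from 4.14% to 7.85%. H2-K1, Psme1 and Tapbp do not overlap across the band and are higher to its left, H2-Q4 is higher to its right, and Psmb8 and H2-D1 overlap.

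The regulator list had 8 of 14 genes tested, 1 higher and 7 lower in large clones (median -0.32), with Creb1 at -0.85 and Atf1 at -0.68, both factors that bind CRE sites. Creb1 was at -0.45 without small clones of mouse 3, and Atf1 at 0.36 without small clones of mouse 2 and -1.25 without large clones of mouse 1. By share the regulators split 3 higher and 7 lower of 10 in the lower-share and 4 to 4 in the higher-share libraries. Among interferon receptors and signalling genes 9 of 14 were tested, 6 higher and 3 lower (median 0.07), with the kinase Tyk2 at 0.93 and the receptor chain Ifnar1 at 0.80. The split turned to 2 higher and 7 lower without large clones of mouse 6 (median -0.17) and in the lower-share libraries (median -0.52), and to 3 and 6 with chemoreceptor share in the model (median -0.12). Medians were also just below 0 without large clones of mice 1 or 5 and without small clones of mice 1, 3 or 4. Ifnar1 was at 0.27 without large clones of mouse 6 and at 2.15 without small clones of mouse 6. Tyk2 was at 0.58 without large clones of mouse 3 and at 1.42 without small clones of mouse 4. Among 34 interferon-stimulated genes 20 were tested, 8 higher and 12 lower (median -0.26). In the lower-share libraries the split was 5 and 15 (median -0.97), in the higher-share libraries 17 and 9 (median 0.72), and with at least 10 counts in every library 4 and 1 (median 0.62). Oasl2, an interferon-induced antiviral protein, was the only one with an unadjusted p under 0.05 (large clones 130 ± 264 CPM, small clones 18.2 ± 10.4 CPM, SD, n = 6 each, log2 fold change 2.83, unadjusted p = 0.016 in edgeR). Large clones of mouse 4 had 1507 Oasl2 counts, and the log2 fold change was 0.29 without them. Irf3, a transcription factor upstream of interferon, was at -1.72 (unadjusted p = 0.100, edgeR).

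Cells of other types were sought through their markers, since leukocytes carry much class I and II. Ptprc, the leukocyte antigen CD45, had 269, 138, 1, 0, 15 and 235 counts in large clones of mice 1 to 6 and 2, 6, 11, 2, 2 and 85 in small clones. It was highest in 4 higher-share libraries, at 31.2 CPM on average in that set and 1.23 CPM in the other. Most of the 9 tested leukocyte markers were likewise higher in the higher-share libraries. Their median difference in mean log2(CPM + 1), lower-share minus higher-share, was -1.56, beside -0.20 over all genes tested. Of the tested ones only Laptm5 and C1qb, named after their values were seen, ran the opposite way by share. Laptm5 was at 33.3 CPM in the higher-share and 64.8 CPM in the lower-share libraries, and C1qb at 4.24 and 19.0 CPM. By clone size Ptprc was 23.3 ± 25.2 and 4.10 ± 6.81 CPM (SD, n = 6 per size; log2 fold change 2.49, unadjusted p = 0.086 in edgeR), while Laptm5 was 37.7 and 65.6 CPM and C1qb 8.66 and 17.0 CPM. Of the 9 tested leukocyte markers 6 were higher and 3 lower in large clones. The summed leukocyte markers were 144 to 459 CPM for large clones and 109 to 344 CPM for small ones. Nkg7 was at 0 in 11 of 12 libraries and Itgax in 10. Other leukocyte markers, named after their values were seen, were more abundant. Cd3e averaged 48.1 CPM for large and 15.1 CPM for small clones, with 3 libraries at 0. Cd8a averaged 12.6 and 10.3 CPM, with more than 3 counts in 12 of 12 libraries. Tyrobp, which the filter removed, averaged 13.3 and 0.245 CPM. Each of the 6 mice had more Tyrobp in its large-clone library, and 5 libraries had none. The class II genes H2-Aa, H2-Eb1 and H2-DMa were at 0 in 10 libraries and H2-Ab1 in 9, while Cd74, the class II invariant chain, had 11.7 and 13.4 CPM (log2 fold change -0.20) and H2-DMb1, which edits class II peptides, was at 0.41. The part of leukocytes in the class I values was not tested.

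Epithelial markers were present in every library. Krt18, a keratin of simple epithelia, averaged 2641 CPM for large clones and 3395 CPM for small ones, and Ovgp1, the oviductal glycoprotein, 1378 and 2998 CPM. Epcam, an epithelial adhesion molecule, had 9.44 ± 5.99 and 26.3 ± 19.9 CPM (SD, n = 6 per size). The endothelial gene Pecam1 had 96.2 and 60.1 CPM. Fibroblast genes differed in direction, with Col1a1 at 9.70 and 17.1 CPM and Dcn at 58.0 and 5.39 CPM. Smooth muscle genes did so too, with Myh11 at 3.89 and 1.58 CPM, Des at 17.6 and 31.3 CPM and Actg2 at 1.05 and 20.5 CPM. Dcn, Col3a1, Kdr, Des and Actg2 were also named after their values were seen. The 13 epithelial markers summed to 636 to 12842 CPM for large clones and 1151 to 14631 CPM for small ones, and the 9 class I genes to 25.4 to 839 and 11.2 to 259 CPM. By share the 9 genes summed to 124 to 839 CPM in the lower-share and 11.2 to 74.0 CPM in the higher-share libraries, and the epithelial sums given above were also apart. Whether epithelial content plays a part in this was not tested.

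The 4 tested genes were also compared by their profiles over the libraries. By Spearman correlation of log2(CPM + 1) over 12 libraries, which share the depth and share differences above, H2-K1 and H2-D1 had a rho of -0.08. Among these 4 genes the most like H2-K1 was Tap2 (0.61), the most like Psmb8 was H2-K1 (0.49, and -0.39 within the 7 lower-share libraries) and the most like H2-D1 was Psmb8 (0.13). The genes of the table most like H2-K1 were Mrpl12, Gadd45gip1 and H2ac24 (0.94 each, and 0.79 each within the lower-share libraries). For Psmb8 they included Nbl1 and Dcpp2 (0.94 each), and they were for Tap2 Esyt3, Scarb1 and Hmgxb4 (0.94 to 0.91) and for H2-D1 Trpc4, Scly and Itpripl2 (0.97 to 0.92). These are the highest values among 10848 genes and are given as a description.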

How the data were processed

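RNA of 200 pooled cells was measured in each of 12 libraries, 1 of large and 1 of small clones from each of 6 mice. The authors deposited a table of expected counts per gene. RSEM and Bowtie2, with GRCm38, are named in the submitters' processing notes, without versions. The joining of isoforms into genes, and the strand used, are not given in the sources used here. Of all entries 22.7% were not whole. Only 2.96% of 35491 genes, and 0 of the 9 described, have the chromosome and start that GENCODE M21 gives on GRCm38, so gene positions are quoted as the table's own and promoters as GRCm38.p6. M21 transcripts, matched by gene identifier, served for lengths and shared 50-base windows. A row without a symbol (0.133% of counts) was kept.

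Expected counts were rounded and tested with edgeR 4.0.16 in R 4.3.3 (quasi-likelihood test, TMM, filterByExpr, Benjamini-Hochberg, threshold 0.05, clone size as the only term), leaving 10848 genes with 97.2% of counts. CPM use TMM-scaled library sizes, and ratios and correlations a pseudocount of 1. Intervals are at 95%. Intervals and the limit of 3 counts cover counting error or the spread between libraries only, since amplified reads are not independent molecules. The script was tested on simulated data. Alternatives were mouse as a block, other normalization and filters, unrounded counts, DESeq2 1.42.0, limma 3.58.1 with quality weights, the chemoreceptor share as a covariate or split, and leaving out each library. Per the labels, equal numbers mark 1 animal, which pairs the libraries. The correlation of paired deviations from the group means lay between -0.36 and 0.62 over the 6 mice.

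The 9 genes, the pathway and marker lists and the share split were chosen with earlier results of these data known. All 9 were named whatever their values. From each list the 2 genes with the lowest p were named where none passed, and for each tested gene the most correlated other member and the 3 most correlated genes. A marker and a correlated gene that these rules name are not reported here. Marker genes named are the defining ones and those with the highest mean CPM. Figures were drawn with matplotlib 3.10.9.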

Additional observations from a re-analysis of the deposited data

Results flagged for a closer look

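In 28 groups of 6 libraries (the 9 genes and 5 ratios in large and in small clones), 5 had a single library far from the rest. For independent normal values chance flags about 1 in 20 groups, or about 1.4 of 28. These groups hold many zeros, and the ratios reuse the same genes, so that rate does not apply and 5 cannot be read as an excess. The measure is the gap from the highest or lowest library to its neighbour as a share of the group's whole range, on log2(CPM + 1), set against the 95% critical value of Dixon's test for 6 values. B2m in large clones of mouse 4 (143 counts, log2 value 6.01, next library 1.80) had a gap of 0.822 of the range. Tap1 in large clones of mouse 5 (10 counts) had a gap of 1.0, which any count gives when the other 5 libraries are at 0. Irf1 in large clones of mouse 5 (23 counts) had a gap of 0.661. Nlrc5 had a gap of 0.661 in large clones of mouse 1 (10 counts) and of 0.650 in small clones of mouse 4 (35 counts). Apart from B2m, these libraries rest on 35 counts or fewer.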

How the results depend on the processing

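DESeq2 called 5 genes and DESeq2 with the replicate block 43, against 0 in edgeR with or without the replicate block and 0 whichever library was left out, and none was among the 9 genes. No member passed under any alternative, and the block changed no other call. The direction turned in these cases, and the cause was not tested. With the replicate block, H2-K1 was at -0.15 (log2 fold change), H2-D1 at 0.0011 and H2-DMb1 at -0.31, and with DESeq2 and the block H2-K1 was at -0.16 and H2-DMb1 at -0.34. With limma, H2-K1 was at -0.69, H2-D1 at 0.038, Tap2 at -0.66, Atf1 at 0.43 and H2-DMb1 at -0.12. With the chemoreceptor share as a covariate Cd74 was at 0.76, and with the block as well H2-D1 was at 0.12 and H2-DMb1 at -0.36. In the higher-share libraries H2-D1 was at 0.59, Psmb8 at 0.32, H2-T22 at -0.19 and Atf1 at 1.98. In the lower-share ones H2-DMb1 was at -0.24 and Cd74 at 0.19. Leaving out each library moved H2-K1 between -0.33 and 1.51, H2-D1 between -0.61 and 0.15, Tap2 between -0.42 and 3.21, Atf1 between -1.25 and 0.36, H2-DMb1 between -0.11 and 1.09 and Cd74 between -3.18 and 0.058. In the fit without a filter, where leaving out libraries was an alternative chosen after seeing the data, Psmb9 moved between -0.80 and 0.14 (0.029 without large clones of mouse 2) and Irf1 between -0.68 and 2.34. Unadjusted p-values under 0.05 numbered 275 in edgeR, 2880 without a filter, 127 with at least 10 counts in every library, 537 in DESeq2, 1135 in DESeq2 with the block and 910 in limma. At least 10 counts in every library left H2-K1 alone of the 9 genes, and Tap2 was not tested in the higher-share libraries. Low counts limit Psmb9, Irf1 and Nlrc5, whose totals over 12 libraries were 18, 40 and 58.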
